A study of Mus musculus with 2 samples.

Results

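The mRNAs of chromatin remodelers and histone modifiers were taken as those on a mouse array whose gene name began with Chd, Baz, Arid, Smarc, Kdm, Setd, Mll, Bptf, Ehmt, Suv or Hdac and whose accession was a coding one: 88 of 18181 gene names, represented by 93 of 18743 accessions and 184 of 26723 probes. The pattern took in the 6 Mllt genes, named for their fusions with Mll in leukemia, which are not all chromatin proteins. Hdac1 was not analysed here, and related genes listed under other names were not counted as members. Chromatin remodelers slide, eject or exchange nucleosomes with the energy of ATP, and histone modifiers add or remove acetyl and methyl groups on histone tails. Most of them work in large assemblies, in which an ATPase or a catalytic subunit is joined by reader proteins, DNA-binding scaffolds and small core subunits. In fibroblasts, as in other cells, they set how accessible promoters and enhancers are to transcription factors.

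NIH3T3 cells, a line of mouse embryo fibroblasts, were either left untreated or given 10 µM thapsigargin for 3 h. Thapsigargin empties the calcium store of the endoplasmic reticulum, which activates the kinase PERK and slows translation initiation through phosphorylation of eIF2α. Polysome-bound RNA (P, labelled with Cy3) and RNA of the free plus monosome fractions (FM, labelled with Cy5) were hybridised together, on 1 array for control cells and 1 for stressed cells, each holding RNA pooled from 3 preparations. With 1 array per condition no test between conditions was possible, so all values below describe these 2 arrays.

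The log2 ratio P/FM was used as the measure of polysome loading, and A, the mean of the log2 P and log2 FM signals, as the measure of mRNA abundance. The spread between probes of the same mRNA served as the only measure of error: over 3438 mRNAs with at least 2 usable probes, its median SD was 0.32 for the change in log2 P/FM and 0.18 for the change in A. All 8 fibroblast markers passed the abundance filter of A above 4.5 on both arrays, against 0 of 5 epithelial, 0 of 3 endothelial and 1 of 4 blood markers (Cd3e). The stress-induced Atf4, Ddit3 and Hspa5 mRNAs rose by 3.42, 2.58 and 1.36 in log2 P/FM. No array was normalised further, so directions hold on the scale of the deposited signals. The paper reports more RNA in P than in FM in control cells and more in FM under stress. Labelling kept those proportions, so unscaled log2 P/FM includes that shift. On this scale the median of all coding mRNAs moved by -0.71 between control and stressed cells. Scaling to the spike-in probes added 2.55 to every change, and its relation to that shift was not tested.

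Each value was read on oligonucleotides of 60 bases. The first 30 bases are given for probes of the members on which the results turn: Baz2b, Chd8 and Setd2 among the largest rises, Smarcb1, Ehmt2 and Mllt1 among the largest falls, and the pair of Arid5b probes that moved in opposite directions. Letters are in lower case throughout, with no part marked, and the number after each gene is the base of the mRNA at which the probe starts, per the array file.
Baz2b, 7755: gtgaaataaaatcgtgacaatttcctacac
Chd8, 7796: ggcccttggactttggaaatgtgggagggg
Setd2, 8136: ctttgtgaggatagtataaattctcctgca
Smarcb1, 1505: cttcagcacacattccatttgctaaacccc
Mllt1, 3532: gtcccgcattttaaacttttttgttaaatt
Ehmt2, 3928: ttccccactgagcctggcctcagttagctg
Arid5b, 497: tcaaggaaaaagctgatctcggggaagatg
Arid5b, 2151: cccgccccctttgatcagcaaaaagaaact
On the mm9 build these bases lay at chr2:59737615-59737644 for Baz2b, chr14:52818190-52818219 for Chd8, chr10:75359636-75359665 for Smarcb1 and chr17:57032081-57032110 for Mllt1, all on the minus strand, and at chr9:110520924-110520953 on the plus strand for Setd2. The coordinates in the array file spanned 59 bases for the Ehmt2 probe, and 56807 and 18 for the Arid5b probes at 497 and 2151. As none of these spans matched the 60 bases of a probe, no position is given for them. Whether a probe lay in coding sequence or in a UTR was not given in the sources used here.

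Of the 93 member accessions, 79 passed the abundance filter on both arrays, and 55 of these had every probe well above background in both channels of both arrays. The 14 that did not pass were both Chd5 accessions, Chd6, Chd7, Hdac8, Hdac9, Kdm4d, Kdm5d, Mll2, Smarca1, Smarcal1, Suv39h2 and the second accessions of Smarca2 (NM_011416) and Suv420h1 (NM_001167884), and no change is given for them.

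Under thapsigargin the members were loaded on polysomes more than the typical mRNA. Their median log2 P/FM was -0.11 in control cells, against 0.34 for all 10033 coding mRNAs that passed the filter, and 0.04 in stressed cells, against -0.29. With normexp correction the control medians were -0.52 in members and -0.55 over all, and with no background subtraction -0.28 and -0.27. Under these settings the filter on A removed no accession, so 93 members and 18743 coding mRNAs were compared. Where the filter acted, the control medians were -0.11 and 0.35 with median spot signals, and -0.02 and 0.21 with processed signals. Values of 0 or more, at which the polysome signal is at least equal to the FM signal, were held by 36 of 79 members in control cells, where 63.5% of all coding mRNAs had such values, and by 41 of 79 in stressed cells, where 37.4% had them. The median change was 0.19 in members and -0.71 over all coding mRNAs. A change above 0 was seen in 44 of 79 members, against a background of 29.3%.

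Single members moved in both directions. A rise of at least 1 was found in 22 members, against 9.90% of all coding mRNAs, and a fall of at least 1 in 15, against 40.8%. All 22 that rose started at or below 0 in control cells, and so were inducible by the definition of the study (log2 P/FM of at most 0 in control cells and a rise of at least 1), a class that held 8.86% of all coding mRNAs. Such a start was common to rises: 889 of the 993 coding mRNAs that rose by at least 1 were inducible. The change had a Pearson correlation with control log2 P/FM, itself a term of the change, of -0.60 over all coding mRNAs and -0.69 over members. A change of -0.8 or lower, which the study calls sensitive, was found in 19 members, against 47.0%. Only Chd4 kept a log2 P/FM of at least 0.8 on both arrays, a property of 3.00% of all coding mRNAs. With the spike-in scaling none of the 79 members fell by 1 or more and 69 rose by 1 or more, while the distance of 0.90 between the median of the members and that of all coding mRNAs was the same.

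**Figure D1:**
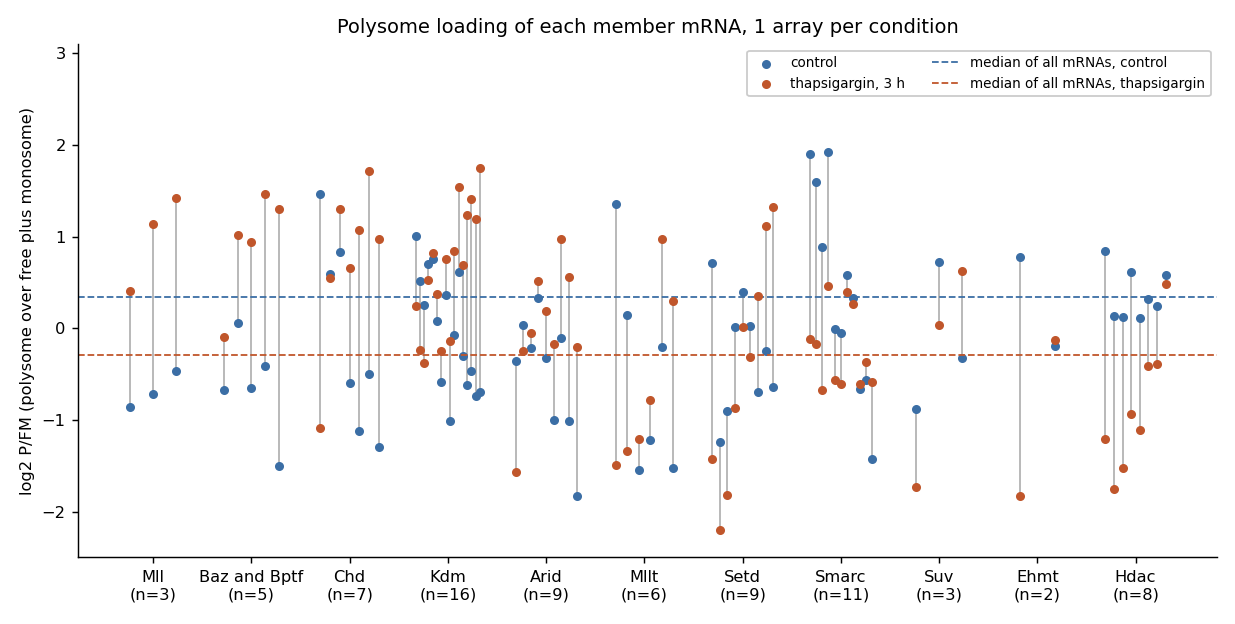
Log2 P/FM of each of the 79 member mRNAs that passed the abundance filter, by family, in control cells (blue) and after 3 h of thapsigargin (orange), 1 array each; a grey line joins the 2 values of an mRNA and dashed lines give the medians of all coding mRNAs (0.34 and -0.29). The Mll, Baz and most Chd and Kdm mRNAs moved up between control and stressed cells, and all 8 Hdac mRNAs moved down on these unscaled values.

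The signals of the separate fractions are given as read, with no scaling between arrays. In the 22 members that rose, the polysome signal was higher in stressed cells in every case, with a median change of 1.74 on the log2 scale (range 0.36 to 3.01), while the FM signal was higher in 12 and its median change was 0.07. In the 15 that fell, the FM signal was higher in every case, with a median change of 1.02 (range 0.43 to 2.32), and the polysome signal was lower in every case, with a median change of -0.54. Over all coding mRNAs the median change was 0.02 in P and 0.72 in FM. The median log2 P/FM of the spike-in probes was -0.40 on the control array and -2.95 on the thapsigargin array. Whether a change lay in P or in FM therefore cannot be told from these signals.

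**Figure D2:**
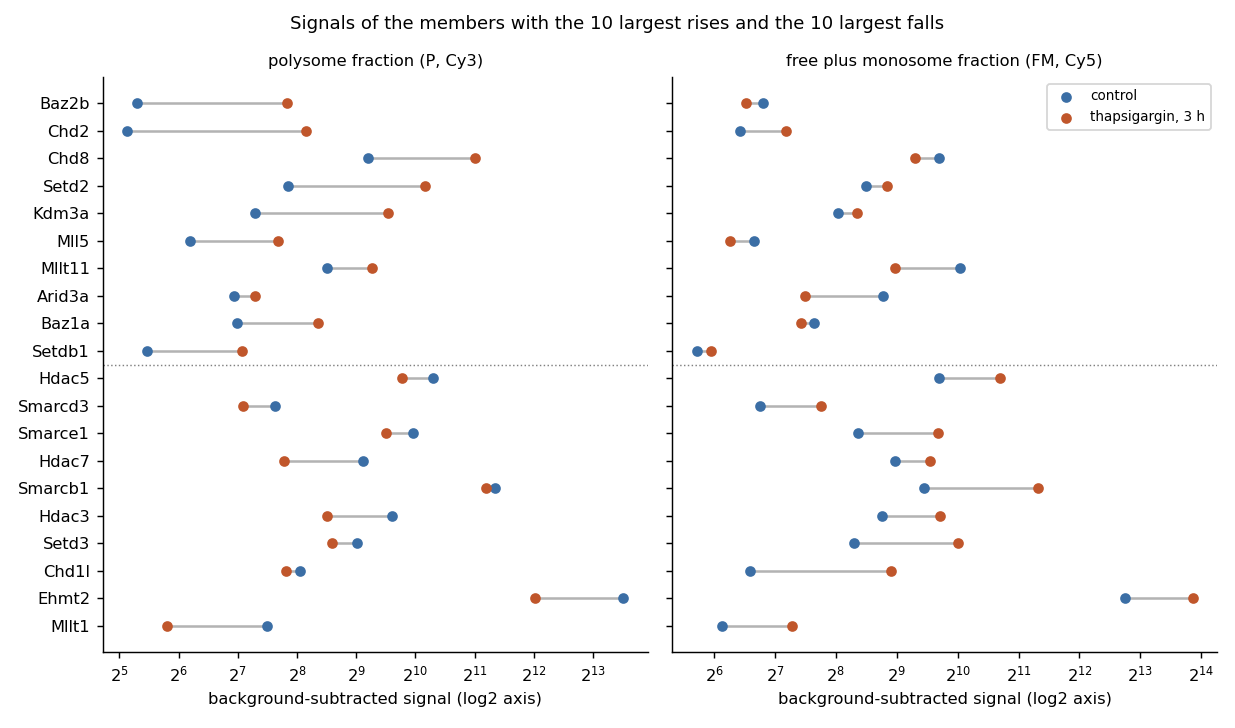
Background-subtracted signals (log2 axes) in the polysome fraction (left) and the free plus monosome fraction (right) for the 10 members with the largest rises and the 10 with the largest falls in log2 P/FM, among those with every probe well above background; blue, control; orange, thapsigargin. Above the dotted line the polysome signals moved right, from 35.2 to 283 for Chd2; below it the FM signals moved right, from 96.0 to 479 for Chd1l.

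All 3 Mll mRNAs that passed the filter rose by at least 1, against 9.90% of all coding mRNAs. Mll1 and Mll3 are methyltransferases of lysine 4 of histone H3, and Mll5 is a related protein with a SET domain. Mll5 (NM_026984) gave a polysome signal of 72.8 in control cells and 206 in stressed cells, and an FM signal of 101 and 76.7. Its log2 P/FM therefore went from -0.47 to 1.42, a rise of 1.89 in which its 2 probes differed by less than the spread among probes of other mRNAs (1.78 and 2.01). Mll1 (NM_001081049) rose by 1.27 (0.95 with normexp background correction and 0.96 with no background subtraction), with a polysome signal of 56.2 and 241 and an FM signal of 102 and 182. Mll3 rose by 1.85 as the mean of 5 probes, and the 3 of them that were well above background ranged from 1.73 to 3.22. The median change of the family was 1.85, which lay 2.57 above the median of all coding mRNAs. With normexp background correction it was 1.11, 0.77 above, and with no background subtraction 1.04, 1.21 above.

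The Baz proteins and Bptf are the large partners of the ISWI ATPases, which space nucleosomes. All 5 had changes above 0, against 29.3% of all coding mRNAs. Baz2b, Bptf and Baz1a rose by at least 1, against 9.90%. Baz2b (NM_001001182) had a polysome signal of 39.5 in control cells and 228 in stressed cells, while its FM signal was 112 and 92.5. Its log2 P/FM went from -1.50 to 1.30, a rise of 2.80, with 2.66 on one probe and 2.94 on the other. No other member rose as much on these values, but with normexp correction Chd8 stood higher (2.14 against 1.66), as it did with no background subtraction (2.13 against 1.88), with processed signals (3.21 against 2.98) and with loess (3.20 against 2.87). Baz1a (NM_013815), the partner of Smarca5 in the ACF complex, rose by 1.59, its 3 probes lying between 1.27 and 1.84. Bptf, the reader subunit of the NURF complex, rose by 1.88 over 4 probes and by 2.32 and 2.74 on the 2 that were well above background. Baz1b and Baz2a had changes of 0.96 and 0.57. The Baz1b probe well above background had 1.70, and the other, which was not, had 0.21. The change of Baz1b was 1.22 with normexp correction and 1.045 with no background subtraction. Smarca5, the ATPase of the ACF complex, had a log2 P/FM of 0.33 in control cells and 0.26 in stressed cells, a change of -0.07 over 4 probes that lay between -0.18 and 0.10.

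The Chd ATPases carry paired chromodomains. Of the 7 that passed the filter, Chd1, Chd2, Chd8 and Chd9 rose by at least 1 and Chd1l fell. Among all coding mRNAs 9.90% rose and 40.8% fell by at least 1. Chd2 (NM_001081345) had a polysome signal of 35.2 in control cells and 283 in stressed cells, against 86.4 and 144 in FM, and its log2 P/FM went from -1.30 to 0.97. Chd8 (NM_201637), a remodeler known for its mutations in autism, had a polysome signal of 585 and 2066, against 827 and 629 in FM, a rise of 2.22. Chd9 rose by 2.19 over 4 probes, with 2.54 and 2.96 on the 2 probes well above background, and Chd1 by 1.26, its 3 probes lying between 1.20 and 1.36.
Chd3 and Chd4, the alternative ATPases of the NuRD complex, had smaller changes. Chd3 had a log2 P/FM of 0.59 in control cells and 0.54 in stressed cells, and Chd4 of 0.83 and 1.30. Chd1l, a remodeler activated by poly-ADP-ribose that lacks chromodomains, moved the other way: its polysome signal was 264 and 226 and its FM signal 96.0 and 479, a fall of 2.54 on 1 probe that spike-in scaling brought to 0.0074.

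**Figure D3:**
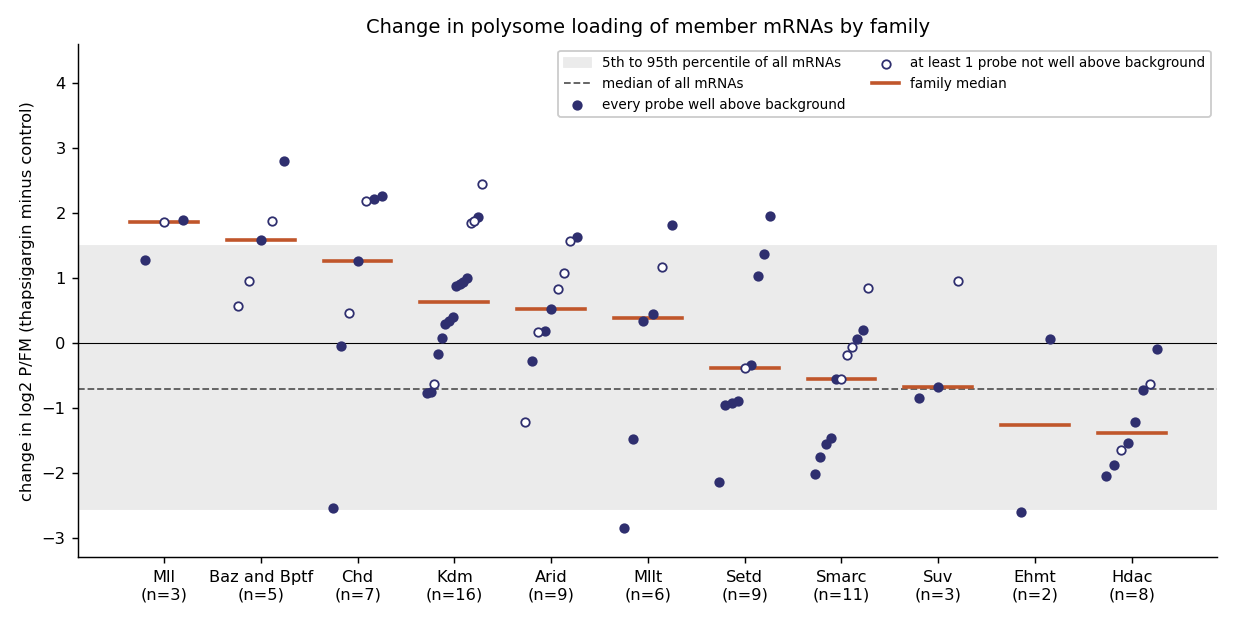
Change in log2 P/FM (thapsigargin minus control) of each member mRNA by family, with filled points for mRNAs whose probes were all well above background, open points for the others, orange bars for family medians, and a grey band from the 5th to the 95th percentile of all coding mRNAs (-2.56 to 1.50). Family medians ran from 1.85 in Mll to -1.38 in Hdac, and the dashed line marks the median of all coding mRNAs at -0.71.

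The Kdm lysine demethylases remove methyl groups from histones. Of 16 accessions, 12 had changes above 0, against 29.3% of all coding mRNAs, and none fell by 1 or more, against 40.8%. Kdm3a, Kdm5a, Kdm5b and Kdm6a, 4 in all, rose by at least 1, against 9.90%. Kdm3a, which removes methyl groups from lysine 9 of histone H3, was measured on 2 accessions that disagreed in size. On NM_173001 its polysome signal was 157 in control cells and 742 in stressed cells, against 263 and 326 in FM, a rise of 1.93. On NM_001038695 the signals were 23.0 and 41.7 in P and 34.6 and 49.5 in FM, and the change was 0.34. The lysine 4 demethylases Kdm5a and Kdm5b rose by 1.85 and 1.87, and their relative Kdm5c had a change of 0.39 with its 2 probes at -0.04 and 0.83.
Kdm6a and Kdm6b remove methyl groups from lysine 27 of histone H3. The polysome signal of Kdm6a in control cells (19.95) was not well above background and its signal in stressed cells was 135. The measured rise was 2.44, and it was 1.565 with normexp correction and 1.45 with no background subtraction. Kdm6b had a polysome signal of 85.4 and 318 and an FM signal of 172 and 349, with a change of 0.87. Kdm1a, the amine oxidase LSD1, had a change of -0.76, with a polysome signal of 445 and 738 and an FM signal of 221 and 622. Kdm3b, a relative of Kdm3a, had a change of 0.999, just under the limit of 1. Of the others, Kdm2a had a change of 0.93, Kdm4c of 0.91, Kdm1b of 0.30 and Kdm4b of 0.07, Kdm2b was at -0.63, and the 2 accessions of Kdm4a were at -0.18 and -0.76. The median change of the family was 0.63.

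The Arid proteins share a DNA-binding domain. Changes were above 0 for 7 of 9, against 29.3% of all coding mRNAs. Arid2, Arid3a and Arid4a rose by at least 1, against 9.90%. Arid3a (NM_007880) rose by 1.63, with an unscaled FM signal of 436 in control cells and 181 in stressed cells and a polysome signal of 122 and 157. The subunits that define the BAF complex, Arid1a and Arid1b, had changes of 0.52 and -0.28, and Arid2, which defines the PBAF complex, rose by 1.57 with 0.47 and 2.28 on the 2 probes well above background. Arid3b fell by 1.22, though 1 of its 3 probes was well above background.
Arid5b gave the most discordant probes. The probe at base 497 had a polysome signal of 302 in control cells and 1363 in stressed cells, against 249 and 320 in FM, a change of 1.81. The probe at base 2151 had a polysome signal of 654 and 307, against 753 and 2239 in FM, a change of -2.66. The other 2 probes were not well above background, and the mean of the 4 was 0.17, a value that stands for none of them. The genomic coordinates of the probe at base 2151 covered 18 bases. They lay downstream of those of the probes listed at bases 2278 and 2402, so its place in the mRNA is uncertain.

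The Smarc family covers the SWI/SNF and related complexes, and its small core subunits stood apart from its ATPases. Smarcb1 (NM_011418), the SNF5 subunit lost in rhabdoid tumors, had an unscaled polysome signal of 2588 in control cells and 2353 in stressed cells, and an FM signal of 696 and 2557. Its log2 P/FM went from 1.90 to -0.12, a fall of 2.02. Smarce1, Smarcd3 and Smarcd2 fell by 1.76, 1.56 and 1.46, with FM signals higher by 1.30, 1.01 and 1.02 on the log2 scale and polysome signals lower by less than that. Smarcd1 had a change of -0.56, and the scaffold subunits Smarcc1 and Smarcc2 had -0.55 and 0.06, with probes of opposite sign in both. The Smarcc1 probe at -1.19 had a stressed polysome signal not well above background, and its other probe had 0.08.
The catalytic subunits Smarca4 (BRG1) and Smarca2 (BRM) had changes of -0.19 and 0.21. Smarcad1 had the highest value of the family, 0.85, with its 2 probes at 0.04 and 1.65. The median of the 11 Smarc accessions, -0.55, was 0.16 above that of all coding mRNAs, and 0.07 below it with normexp background correction; spike-in scaling turned the falls named here into changes above 0.

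The Setd methyltransferases divided within the family. Setd2 (NM_001081340), which trimethylates lysine 36 of histone H3, had a polysome signal of 231 in control cells and 1144 in stressed cells, against 360 and 459 in FM, and rose by 1.96. Setdb1, a methyltransferase of lysine 9, rose by 1.37, and Setd5 by 1.04. Setd3 (NM_028262), known as the methyltransferase of a histidine in actin, fell by 2.13, with its 2 probes at -2.15 and -2.12; its polysome signal was 518 and 385 and its FM signal 316 and 1030. Setd4, Setd6 and Setd8, the enzyme that monomethylates lysine 20 of histone H4, had changes of -0.89, -0.92 and -0.96, and thus counted as sensitive without a fall of 1. Setd1a had -0.34. Setd7 had a mean of -0.39 over 4 probes but 0.47 and 0.54 on the 2 that were well above background.

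Ehmt1 and Ehmt2 form a heterodimer that methylates lysine 9 of histone H3, and their mRNAs behaved differently. Ehmt2 (NM_145830) had a polysome signal of 11684 in control cells and 4176 in stressed cells and an FM signal of 6843 and 14849, a fall of 2.60. Ehmt1 (NM_172545) had a polysome signal of 394 and 722 and an FM signal of 452 and 791, so that its log2 P/FM was -0.20 and -0.13. The difference of these changes far exceeded the spread between probes of the same mRNA, but each rested on 1 probe. In the Suv family, Suv39h1, the heterochromatin enzyme that trimethylates lysine 9, had a change of -0.68, Suv420h1 of 0.95 and Suv420h2 of -0.85, the latter 2 acting on lysine 20 of histone H4. The Suv420h2 probes lay at -1.54 and -0.16.

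The 8 deacetylases that passed the filter had changes below 0, as 70.7% of all coding mRNAs did, with a median of -1.38. Spike-in scaling brought that median to 1.17 and left its distance from the median of all coding mRNAs at -0.67. With normexp correction, under which all 10 Hdac accessions were kept, the median was -0.08 and 6 lay below 0, and with no background subtraction it was -0.64 and 8 did. The Ehmt median was lower under both (-1.18 and -1.25). The 8 Hdac mRNAs had log2 P/FM values above 0 in control cells without exception, and only Hdac4 kept such a value in stressed cells. Among the class I enzymes, Hdac3 (NM_010411), the catalytic subunit of the NCoR and SMRT corepressors, had a polysome signal of 775 in control cells and 362 in stressed cells, against 432 and 835 in FM, a fall of 2.05. Hdac2 was close to the abundance limit and its FM signal in control cells was not well above background, with a measured change of -0.63.
Of the class IIa enzymes, which shuttle between cytoplasm and nucleus, Hdac7 fell by 1.88 (probes at -1.97 and -1.79) and Hdac5 by 1.54, while Hdac4 had a change of -0.10, which was 0.54 with normexp correction, 0.02 with no background subtraction and 0.16 with processed signals. Hdac5 had a polysome signal of 1259 and 874 and an FM signal of 826 and 1666. Hdac4 had a polysome signal of 182 and 347 and an FM signal of 122 and 248, so both unscaled signals were higher by a like amount. Of class IIb, Hdac10 fell by 1.22 and Hdac6, the tubulin deacetylase, had a change of -0.73. Hdac11, the class IV enzyme, had a measured fall of 1.65 with signals between 16.3 and 47.0, and 2 of its 4 signals were not well above background.

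The Mllt genes moved in both directions. Mllt1 (ENL), a reader of acetylated histones in the super elongation complex, had a polysome signal of 180 in control cells and 55.5 in stressed cells, against 70.4 and 156 in FM. It fell by 2.84, and its 3 probes lay at -3.28, -2.35 and -2.90. With normexp correction its change was -0.97, short of a fall of 1, and with no background subtraction -1.79. Its paralog Mllt3 (AF9) had a change of 0.34 over 5 probes, all well above background, that ran from -0.41 for the probe at base 1966 to 1.30 for the probe at base 6045. Mllt11, which encodes a small protein outside chromatin, rose by 1.82: its polysome signal was 365 and 616 and its FM signal 1054 and 503. Mllt4, the junction protein afadin, rose by 1.17, Mllt6 fell by 1.48, and Mllt10, a partner of Dot1l, had a change of 0.44.

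**Figure D4:**
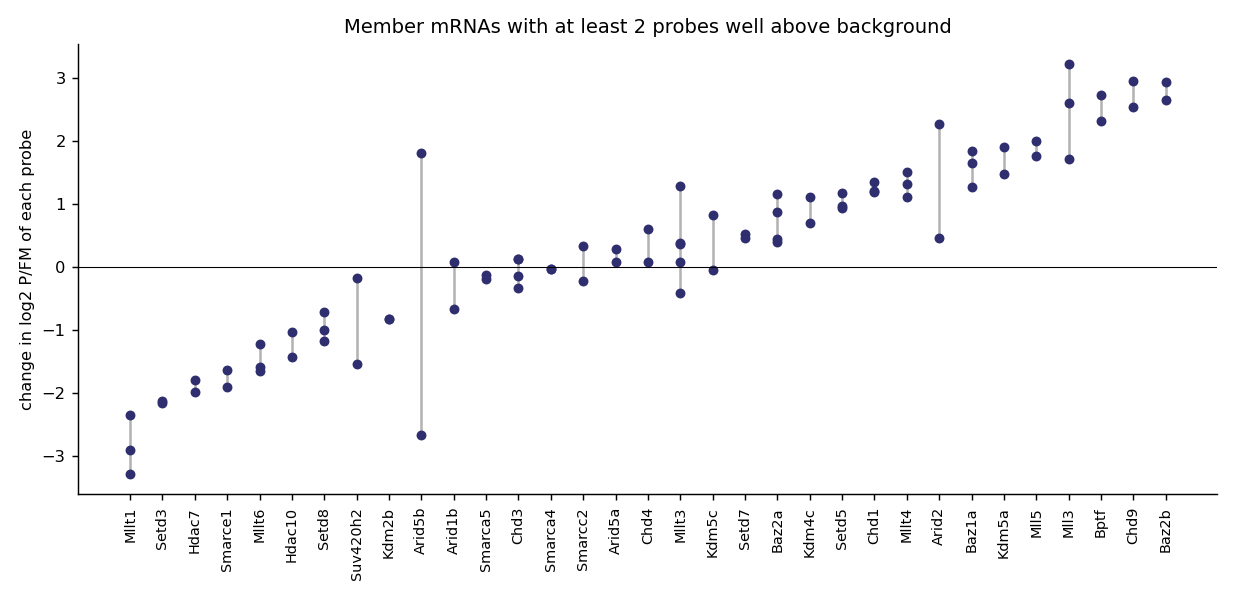
Change in log2 P/FM on each probe of the 33 member mRNAs with at least 2 probes well above background in both channels of both arrays, ordered by their mean; each point is 1 probe and grey lines join probes of the same mRNA. The probes of Setd3, Hdac7 and Baz2b lay close together, those of Mllt1 ran from -3.28 to -2.35, and those of Arid5b lay at 1.81 and -2.66.

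Probes of the same mRNA mostly moved together. Among 33 members with at least 2 probes well above background and above the abundance limit, the median SD of the change between probes was 0.29, against 0.30 over 3073 such mRNAs. Probes of opposite sign were found in 6 members, which is 18.2%, against 19.4% over all. Arid5b was the only member with 1 probe at 1 or above and another at -1 or below, a pattern found in 26 of the 3073 mRNAs.

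The median change in A was 0.60, against 0.37 over all coding mRNAs, and A was higher by at least 1 in 20 of 79 members, against a background of 11.7%. No member had a decrease of 1 or more, for which the background was 0.698%. These counts rest on the treatment of the background: with normexp correction the median change in A was -0.73 in members and -1.48 over all coding mRNAs, and 0 members gained 1 or more. The study labelled the same total amount of RNA from each sample, so A is a relative measure and gives no amount per cell. The largest increase on these values was that of Arid5a (NM_145996), an RNA-binding protein that stabilises cytokine mRNAs: its polysome signal went from 46.2 to 315 and its FM signal from 36.9 to 220, so that A rose by 2.67 while log2 P/FM went from 0.33 to 0.52. Chd2, Mll1 and Kdm6b had increases of 1.88, 1.47 and 1.46. The Kdm family held 10 of the 20, among them Kdm4a, Kdm4b and Kdm4c, demethylases of lysines 9 and 36, with 1.30, 1.21 and 1.31. Of these 20 members, 17 had changes in log2 P/FM above the median of all coding mRNAs and 3 (Chd1l, Hdac6 and Kdm1a) below it.

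The change in log2 P/FM moved with the position of the farthest probe along the mRNA, which is a lower bound on mRNA length. Over all 10033 coding mRNAs the 2 measures had a Pearson correlation of 0.53 (Spearman 0.54), and over the 79 members of 0.58 (Spearman 0.67), as a description of mRNAs read on the same 2 arrays. Where the farthest probe lay before base 2000, the median change was -1.30 over all coding mRNAs and -0.92 in 11 members. Between bases 2000 and 4000 it was -0.41 over all and -0.76 in 22 members.
Between bases 4000 and 6000 the median change was 0.20 over all coding mRNAs and 0.83 in 23 members. From base 6000 on it was 1.00 over all and 1.26 in 23 members, where 14 members were inducible and 45.9% of all coding mRNAs were. Thus 14 of the 22 members that rose had a probe at or beyond base 6000, against 1 of the 15 that fell, Mllt6.

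**Figure D5:**
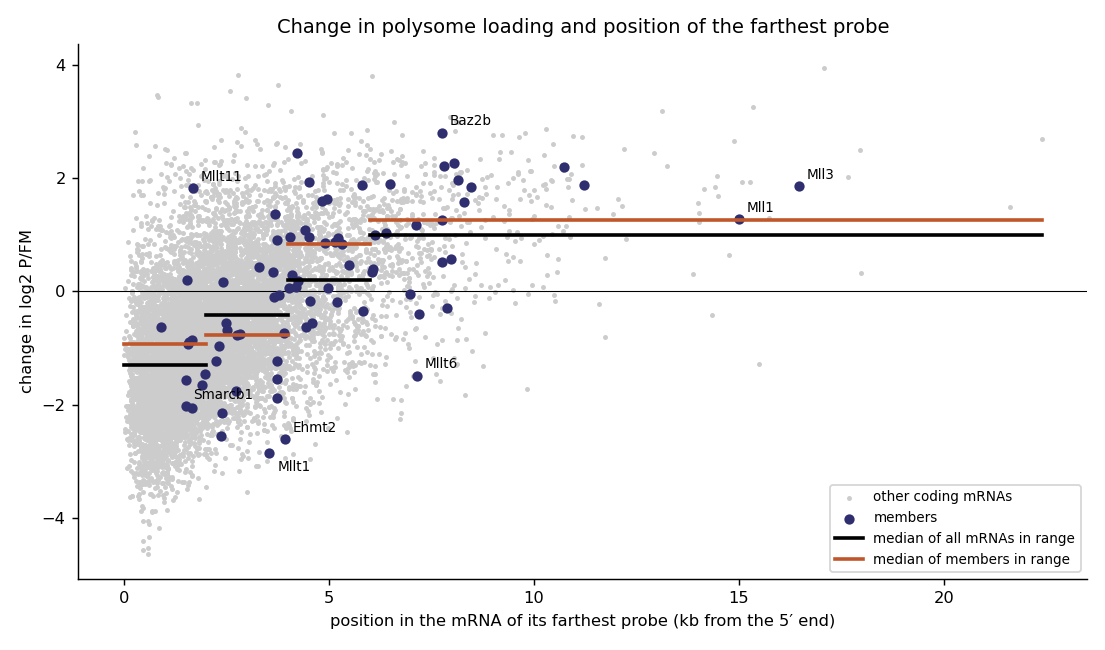
Change in log2 P/FM against the position in the mRNA of its farthest probe (kb from the 5′ end) for the 79 members (dark points) and the other coding mRNAs that passed the filter (grey); horizontal bars give medians over 4 ranges of position for all coding mRNAs (black) and for members (orange). Both medians go from below -0.9 in the first range to about 1 in the last.

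Measured against the median of all coding mRNAs in the same range of probe positions, the members lay close to other mRNAs. The median distance was 0.10, in place of the 0.90 found without regard to position, and 42 of 79 members lay above the median of their range. By family the median distance was 0.88 for Baz and Bptf, 0.86 for Mll, 0.57 for Arid, 0.39 for Kdm, 0.27 for Chd, -0.16 for Smarc, -0.55 for Hdac and -1.16 for Ehmt. The highest distance was 3.12, for Mllt11, and the lowest -2.48, for Mllt6. The part that mRNA length has in these changes was not tested.

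Abundance moved with the change as well. In members with a mean A between 4.5 and 7 the median change was 0.70 (38 members), against -0.24 over all coding mRNAs of that range. It was -0.07 against -0.67 for a mean A between 7 and 9 (32 members), and -1.54 against -1.43 above 9, where 6 of 9 members were sensitive and 70.4% of all coding mRNAs were.

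By role, the ATPases of remodelers had a median change of 0.66 (10 accessions, 0 fell by 1 or more). Chd1l, which fell by 2.54, was not counted among these ATPases. The median was 0.63 for the demethylases (16) and 0.06 for the other subunits of remodelers (15, of which 4 rose and 4 fell). It was -0.34 for the methyltransferases (17, of which 6 rose and 2 fell) and -1.38 for the deacetylases (8, of which 5 fell). Among all coding mRNAs 9.90% rose and 40.8% fell by at least 1. The median farthest probe lay at base 6228.5 for the ATPases and 2953 for the deacetylases, and its part in these medians was not tested.

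A list of 117 chromatin genes outside these name families, with 123 accessions, gave 107 that passed the filter, with a median change of -0.53, 0.19 above that of all coding mRNAs; 17 rose and 38 fell by at least 1, 16 were inducible and 40 sensitive. Among all coding mRNAs the shares of these 4 calls were 9.90%, 40.8%, 8.86% and 47.0%. The bromodomain proteins, readers of acetylated histones, had a median of 0.98 with 5 rises among 11 accessions. The sirtuins, deacetylases that use NAD, had a median of -1.23 with 5 falls among 6, and the subunits of NuRD and other corepressors a median of -1.0 with 9 falls among 17. The sublists of Polycomb proteins (-0.49), acetyltransferases (-0.33), other methyltransferases (-0.66), Set1 and Mll complex subunits (-0.59), other remodeler genes (-0.83) and subunits of INO80, SRCAP and TIP60 (-0.03) lay between, and other demethylases (0.15, 4 accessions) and DNA methylation genes (0.35, 4 accessions) were just above 0. The highest and lowest of the list, picked after their values were seen, were Asxl2, a partner of the Polycomb deubiquitinase, with a rise of 2.50, and the arginine methyltransferase Prmt1, which fell by 3.09, from a polysome signal of 3727 and an FM signal of 792 in control cells to 1483 and 2676 in stressed cells.
Some partners of the members in the same complexes, also picked after their values were seen, had changes unlike theirs. Mta1 and Rbbp4 of NuRD had changes of -2.94 and -2.47, while Chd3 and Chd4 of NuRD had changes of -0.05 and 0.47. The other NuRD subunits of the list ran from -1.81 for Mbd3 to 0.17 for Gatad2b. Of the core partners of the Mll enzymes, Wdr5 and Ash2l had changes of -1.69 and -1.82, Dpy30 of -0.09 and Rbbp5 of 0.45. Mll1 and Mll3 rose by 1.27 and 1.85. The part of probe position in these differences was not tested.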

How the data were processed

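Spots of each two-colour Agilent array were read from the scanner tables deposited by the authors, in which intensity columns hold mean and median spot signals with local background and log10 columns hold the ratio of red over green; further columns, per the file headers, hold flags. The deposited series matrix holds log2 P/FM means per accession made by the authors. Images were extracted with Agilent Feature Extraction 10.7.1, on the mm9 build per the file headers. Following the methods of the study, signals were corrected by local background with a floor of 0.5 and not normalised (limma 3.58.1), probes were averaged per accession, and A above 4.5 was required on both arrays. Spots flagged as outliers (295, none of a member) were left out. The change was log2 P/FM in stressed minus control cells; calls used 1 on the log2 scale. Among 43379 gene spots, 42.5% to 46.3% were well above background in each channel; the number of arrays limits precision, and p-values were not computed.

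Members and lists were chosen with earlier results of these data known. Named in full were the highest and lowest member per family and the 10 largest rises and falls among members with every probe well above background, members with a change in A of at least 1 and members with probes or accessions of opposite sign; others are named within their family. Alternatives were listed, and 1 was added after seeing the data. Current symbols came from RefSeq (GRCm38.p6), matched for 91 of 93 member accessions, with 8 names changed, such as Mll3 (Kmt2c), Setd8 (Kmt5a) and Suv420h1 (Kmt5b); names are those of the array. Position in the mRNA is the start given per probe in the array files: of 297 probe pairs of an accession that should overlap by it, 253 shared the overlapping bases. It was used, after seeing the data, in place of protein length. The calculation was tested on simulated data.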

Additional observations from a re-analysis of the deposited data

How the results depend on the processing

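No paired analysis was possible because each condition had 1 array. The median change of the members lay above that of all coding mRNAs under every alternative, by 0.14 with normexp correction, 0.24 with no background subtraction and 0.75 to 1.01 under the others; under the first pair the filter on A removed no accession. Against 19 sensitive and 22 inducible members, there were 11 sensitive with normexp and 12 with loess, 8 inducible with A above 7, 13 inducible where every probe had to be well above background, and 34 sensitive and 44 inducible with each probe as the unit. The median control log2 P/FM (-0.11) was -0.52 with normexp, -0.44 after centring each array on its median and 0.30 after spike-in scaling. The stressed median (0.04) was 0.52 with processed signals or the log ratio of Feature Extraction, 0.48 with loess, 0.33 after centring and 2.99 after spike-in scaling. The median change (0.19) was 0.53, 0.53, 0.60, 0.82 and 2.74 in that order, and -0.24 with A above 7. The median change in A (0.60) was -0.73 with normexp, 0.36 without background subtraction and 0.18 with processed signals or the log ratio. The split of calls into rises and falls (22 and 15) became 33 and 12 with processed signals, 28 and 8 with loess, 35 and 9 after centring, 23 and 8 with normexp, 8 and 11 with A above 7, and 69 and 0 after spike-in scaling, which left no sensitive member.

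Spike-in scaling turned the family medians of Ehmt and Hdac to 1.28 and 1.17, and the changes of Hdac5, Smarcd3, Smarce1, Hdac7, Smarcb1, Hdac3, Setd3 and Chd1l to 1.01, 0.99, 0.79, 0.67, 0.53, 0.50, 0.42 and 0.0074. No other alternative reversed a called value. The cause of these differences was not tested. Kdm6a, Hdac2 and Hdac11 had signals not well above background, so the sizes of their changes are uncertain. Of the 79 members, 24 had at least 1 probe not well above background. Leaving those probes out gave a median change of 0.30, an alternative chosen after seeing the data.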

Other observations

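Among chromatin genes outside these name families, 2 had accessions that disagreed, as chosen after their values were seen. Sin3b, a scaffold of histone deacetylase complexes, fell by 2.98 on the accession whose probe started at base 944, where its polysome signal was 13227 in control cells and 3552 in stressed cells and its FM signal 3753 and 7939. On the accession whose probe started at base 4007, its polysome signal was 97.4 and 317 and its FM signal 97.8 and 217, a change of 0.55. Nsd3, a methyltransferase of lysine 36 of histone H3, had a change of -0.66 on the accession whose farthest probe lay at base 3157 and rose by 1.62 on the one whose farthest probe lay at base 9670.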
